A study of Mus musculus with 27 samples.

Results

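The 8 genes described here bring fatty acids to the cell, carry them across its membrane, or bind and activate them inside. They are the fatty acid binding proteins Fabp3, Fabp4 and Fabp5, the membrane proteins Cd36 and Slc27a1, the acyl-CoA synthetase Acsl1, the lipoprotein lipase Lpl and its anchor Gpihbp1. They were taken by gene symbol, and all 8 were found among the 24825 genes of the deposited tables. Polyadenylated RNA was sequenced from C2C12 cells, a mouse myoblast line that can fuse into myotubes. Control cells, cells with full-length NFIA carrying a 3xFLAG tag, and cells with a mutant that lacks the C-terminal pro#3 domain (Δpro#3) were compared, all carrying a retroviral vector. Each kind of cell was sampled at day 0, at day 7 of adipocyte differentiation, and at day 7 after 4 hours with 10 µM forskolin, which activates adenylyl cyclase and so raises cyclic AMP. There were 9 groups with 3 samples in each. All day 7 cells, the controls included, had been given the same adipogenic mixture with isobutylmethylxanthine, indomethacin, dexamethasone, insulin, T3 and rosiglitazone, an agonist of PPARγ. The constructs were overexpressed in 1 cell line, on top of its endogenous genes. Nothing in the labels says that the 3 samples of a group were separate cultures, so the p-values measure only the spread between these samples, which may be technical.

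Long-chain fatty acids reach a cell bound to albumin or packed as triglyceride in lipoproteins. Lpl hydrolyses that triglyceride, and Gpihbp1, made by capillary endothelium, carries Lpl to the vessel wall and holds it there. Cd36 and Slc27a1 (fatty acid transport protein 1) promote the passage of fatty acids across the plasma membrane. Acsl1 turns them into acyl-CoA, which keeps them in the cell, and the small cytosolic Fabp proteins keep them soluble and pass them on to membranes, organelles and nuclear receptors. Fabp4 is abundant in adipocytes and macrophages, Fabp3 in heart and oxidative muscle, and Fabp5 in skin. Fabp4, Lpl, Cd36, Acsl1 and Slc27a1 are textbook targets of PPARγ.

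Fabp5 and Fabp4 are neighbours in the genome, in a cluster of fatty acid binding protein genes. In the NCBIM37 (mm9) annotation Fabp5 lay at chr3:10012548-10016607 on the plus strand and Fabp4 at chr3:10204347-10208576 on the minus strand, 187740 bases apart. Pmp2 and Fabp9 lay between them and Fabp12 began 35633 bases past Fabp4, and these 3 cluster genes were at 0.338 FPKM or less in every one of the 27 samples. The remaining genes lay apart from the cluster, Fabp3 at chr4:129985839-129992707, Cd36 at chr5:17287508-17394777, Gpihbp1 at chr15:75427088-75428642, and on chromosome 8 Acsl1 at chr8:47556395-47621405, Lpl at chr8:71404390-71431347 and Slc27a1 at chr8:74092826-74110607. Fabp3 and Fabp5 have pseudogene copies elsewhere in the mouse genome, so their levels, which count uniquely placed reads, are uncertain where copies are identical.

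RefSeq promoter windows (GRCm38.p6) were matched by symbol for 4 of the 8 genes, in 7 windows, and Fabp4, Fabp5, Lpl and Gpihbp1 are named only. The 250 bases before the start were searched on both strands for the NFI element TTGGCA and the full NFI palindrome, the nuclear receptor element AGGTCA, the E box CAGCTG of myogenic factors, the cyclic AMP response element core TGACGT and the TATA box TATAAA. The windows that held a match are shown so that their letters stand beside the levels of the same genes below, and the capitals mark the match. Fabp3 (chr4:130308488-130308737, plus strand) held TGACGT, Cd36 (chr5:17835897-17836146, minus strand) held AGGTCA in reverse, and Slc27a1 (chr8:71568621-71568870, plus strand) and the second start of Acsl1 (chr8:46490716-46490965, plus strand) each held CAGCTG.
Fabp3: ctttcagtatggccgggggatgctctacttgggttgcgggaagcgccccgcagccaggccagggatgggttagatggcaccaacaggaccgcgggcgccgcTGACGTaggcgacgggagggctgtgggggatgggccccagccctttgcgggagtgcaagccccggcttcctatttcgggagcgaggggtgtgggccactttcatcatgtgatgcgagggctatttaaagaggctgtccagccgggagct
Cd36: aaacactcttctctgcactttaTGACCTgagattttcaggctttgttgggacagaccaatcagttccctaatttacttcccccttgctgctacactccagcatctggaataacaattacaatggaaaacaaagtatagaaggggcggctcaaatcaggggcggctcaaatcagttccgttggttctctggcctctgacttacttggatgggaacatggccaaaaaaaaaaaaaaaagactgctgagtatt
Slc27a1: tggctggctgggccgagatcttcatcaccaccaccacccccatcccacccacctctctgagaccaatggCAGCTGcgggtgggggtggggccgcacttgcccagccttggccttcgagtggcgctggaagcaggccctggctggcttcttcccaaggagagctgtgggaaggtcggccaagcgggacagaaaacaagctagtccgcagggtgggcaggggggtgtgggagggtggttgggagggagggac
Acsl1: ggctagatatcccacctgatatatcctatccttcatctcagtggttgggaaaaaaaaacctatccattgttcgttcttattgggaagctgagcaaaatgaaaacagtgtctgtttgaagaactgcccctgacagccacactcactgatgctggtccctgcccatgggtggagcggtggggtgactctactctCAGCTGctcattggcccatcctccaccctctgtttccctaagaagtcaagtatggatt
The matches began 149, 228, 181 and 58 bases before the start. Over the 32851 mouse windows of the same length, TGACGT occurred in 6.47%, AGGTCA in 14% and CAGCTG in 13%. TTGGCA (12.3% of all windows), TATAAA (12.4%) and the palindrome (0.0365%) were not among the letters of the 7 windows.

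Levels are in FPKM, fragments per kilobase of gene length scaled to the mapped fragments of the library, so genes can be compared with each other, and a mean is followed by the SD of its 3 samples. The tables held 9567769 to 27230965 fragments per sample. Nfia was at 225 FPKM or more in all NFIA and Δpro#3 samples, and at most at 0.879 FPKM in all controls apart from day 0 replicate 2, at 7.35 FPKM, whose Fabp4 level lay within those of the other controls. All 11 muscle markers found in the tables (Myod1, Myog, Des, Ckm and others) had means of 0.5 FPKM or more in day 0 controls. At day 7 their sum was 10751 to 12436 FPKM in control, 11889 to 12389 FPKM in Δpro#3 and 1899 to 2599 FPKM in NFIA cells. The sum of 10 adipocyte markers (Adipoq, Plin1, Cidec, Lipe and others) was 42.8 to 49.0 FPKM in day 7 controls and 2360 to 2428 FPKM in NFIA cells. In Δpro#3 cells at day 7 that sum was 292 FPKM in replicate 1 and 93.5 and 94.0 FPKM in replicates 2 and 3, and with forskolin it was 105, 55.3 and 61.0 FPKM. Replicate 1 of the Δpro#3 cells thus stood apart at day 7 and with forskolin.

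**Figure D1:**
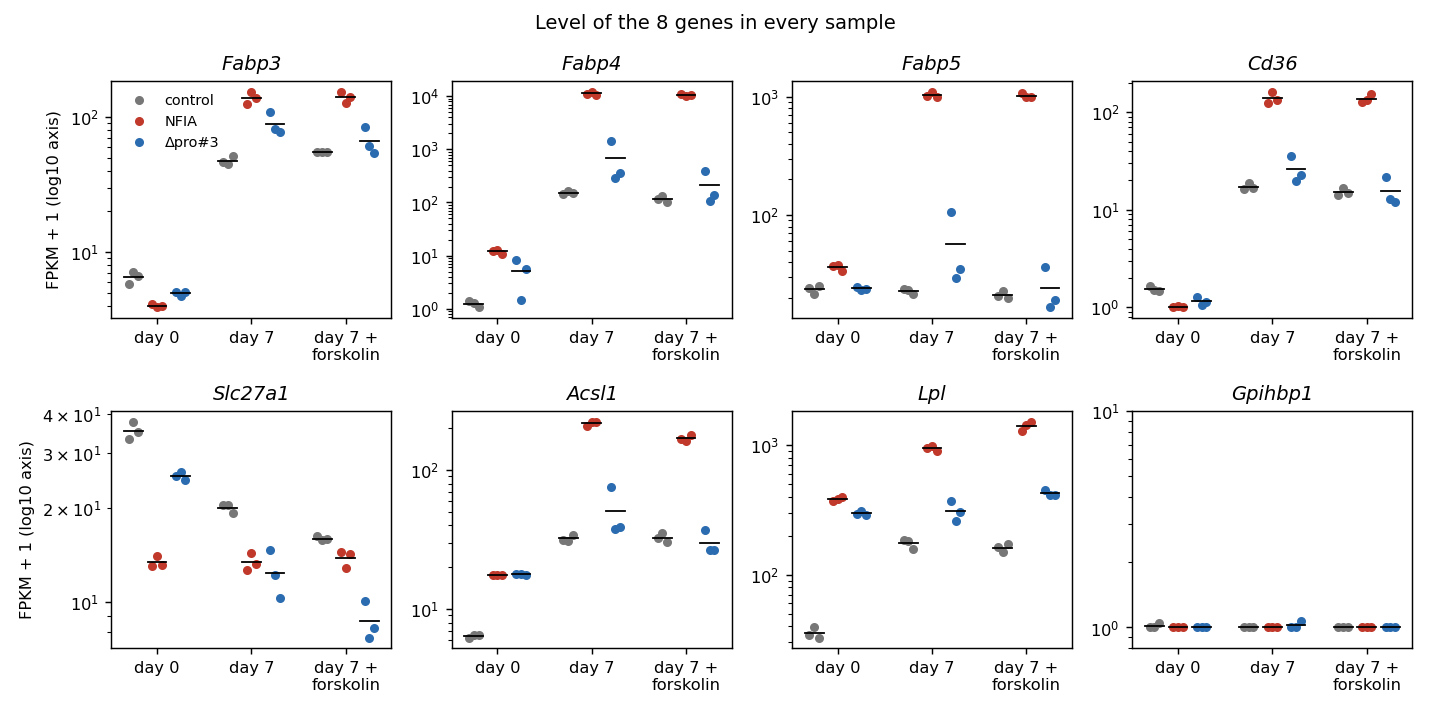
Level of each of the 8 genes in the 27 samples, as FPKM + 1 on a log10 axis against day, with 1 point per sample, a black line at each group's mean, and colour for control, NFIA and Δpro#3 cells. The NFIA samples of day 7, without and with forskolin, lie above all others for Fabp3, Fabp4, Fabp5, Cd36, Lpl and Acsl1, while Slc27a1 is highest in day 0 controls and Gpihbp1 stays at the bottom.

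Before differentiation, 2 of the 8 genes, Fabp4 and Lpl, rose in NFIA cells, and both also rose in Δpro#3 cells. A difference was called where limma's Benjamini-Hochberg adjusted p was under 0.05 and FPKM + 1 differed by more than 3-fold, and 6 of the 8 genes passed the filter of a mean of 0.5 FPKM at day 0. Of all genes tested, 2.46% were called higher and 5.24% in either direction in NFIA against control cells, and 0.859% higher in Δpro#3 against control cells. Between Δpro#3 and NFIA cells none of the 6 was called by limma, against 2.05% of all genes, but 5 of the 6 were under an unadjusted p of 0.05, and the same 5 under an adjusted p of 0.05 with less than 3-fold differences, as were 65.3% of all genes. As in any bulk sample, more cells of one kind and more RNA per cell cannot be told apart.

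Fabp4 was at 0.371, 0.270 and 0.0563 FPKM in the day 0 controls, 12 fragments in all, and at 11.1, 11.9 and 9.86 FPKM in NFIA cells. The 3 NFIA samples all lay above the controls, a log2 difference of 3.28 (SE 0.48) in FPKM + 1 (limma, adjusted p = 0.000101). With so few fragments in controls this value depends on the pseudocount. Limma-voom on fragments gave 5.71, and the depth-corrected ratio of the 474 fragments in NFIA cells to the 12 was 48.9, with a 95% interval of 27.8 to 95.4 that covers counting error only. The Δpro#3 cells had Fabp4 at 7.37, 0.478 and 4.53 FPKM, a log2 difference of 1.74 from control (SE 0.48, adjusted p = 0.00936). Replicate 2 of these samples lay close to the controls and the others did not. By limma-voom the difference from control was 3.55. The difference in Fabp4 between Δpro#3 and NFIA cells was -1.54 (SE 0.48, adjusted p = 0.0161), 2.91-fold and so just short of a call. It was -2.16 and called by limma-voom, and -0.81 without Δpro#3 replicate 2. For Δpro#3 against control cells, without replicate 1 the log2 difference in FPKM + 1 was 1.22, without replicate 3 it was 1.52, both under 3-fold, and without replicate 2 it was 2.47.

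Lpl was already abundant before differentiation in NFIA and Δpro#3 cells. It was at 33.5, 38.8 and 31.7 FPKM in controls, at 366, 385 and 398 FPKM in NFIA cells and at 295, 311 and 288 FPKM in Δpro#3 cells. The groups did not overlap, and the log2 difference from control was 3.43 in NFIA cells (SE 0.06, adjusted p = 7.75e-12) and 3.07 in Δpro#3 cells (SE 0.06, adjusted p = 6.43e-11). Between Δpro#3 and NFIA cells it was -0.36 (adjusted p = 0.000581). Acsl1 was at 5.41 ± 0.154 FPKM in control, 16.6 ± 0.0792 FPKM in NFIA and 16.8 ± 0.231 FPKM in Δpro#3 cells. It passed the adjusted p but not 3-fold against control with both constructs, with log2 differences of 1.46 and 1.47. With a pseudocount of 0.1 in place of 1 these were 1.60 and 1.61, past 3-fold. The difference in Acsl1 between Δpro#3 and NFIA cells was 0.01, with a 95% interval of -0.06 to 0.08.

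Slc27a1 lay in the other direction, below control with both constructs. It was at 32.2, 36.6 and 33.9 FPKM in controls, 12.0, 13.0 and 12.2 FPKM in NFIA cells and 24.3, 25.1 and 23.5 FPKM in Δpro#3 cells. The 3 groups did not overlap, with Δpro#3 cells between the others, but the log2 differences of -1.39 and -0.48 from control and 0.92 between the constructs stayed under 3-fold (adjusted p = 7.67e-10, 1.02e-05 and 4.66e-08). Fabp5 was at 22.7 ± 1.88 FPKM in control, 35.3 ± 2.10 FPKM in NFIA and 22.9 ± 0.644 FPKM in Δpro#3 cells, and Fabp3 at 5.56 ± 0.703, 3.04 ± 0.130 and 3.97 ± 0.193 FPKM. Neither gene was called, and the log2 difference of Fabp5 between Δpro#3 and control cells was 0.02 (adjusted p = 0.835).

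Cd36 was under the filter at day 0, and its few fragments were ordered in the opposite way to those of Fabp4. The 3 controls held 165 fragments, at 0.676, 0.514 and 0.459 FPKM. NFIA cells held 3 fragments, all in replicate 2 at 0.0303 FPKM, and Δpro#3 cells held 44, at 0.291, 0.0621 and 0.128 FPKM. The control to NFIA ratio corrected for depth was 44.4, with a 95% counting interval of 14.9 to 217.5, and the control to Δpro#3 ratio was 3.53, with an interval of 2.51 to 5.03. These intervals cover counting error only. When all genes were fitted with no filter on low values, the log2 difference of Cd36 from control was -0.62 in NFIA cells (limma, adjusted p = 0.000111) and -0.42 in Δpro#3 cells (adjusted p = 0.00173).

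Gpihbp1 was practically without reads in every group. Only 2 fragments were assigned to it among 505672291 in the 27 samples, 1 in a day 0 control at 0.0464 FPKM and 1 in a day 7 Δpro#3 sample at 0.0685 FPKM. A floor of 3 fragments per sample corresponded to 0.134 to 0.380 FPKM, so levels under that were not detectable. Of 8 endothelial markers, 6 or 7 had means under 0.5 FPKM in every group, and Pecam1 and Cdh5 did not exceed a mean of 0.170 FPKM. Flt1 was the highest of them and rose in NFIA cells, from 1.28 to 9.19 FPKM at day 0 and from 0.963 to 5.78 FPKM at day 7.

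After 7 days of differentiation Fabp4, Fabp5, Cd36, Acsl1 and Lpl rose in NFIA against control cells, 5 of the 7 genes tested, where 4.87% of all genes were called higher and 8.17% in either direction. Fabp4 was the 1 gene called higher than control in Δpro#3 cells, against 0.933% of all genes, and without Δpro#3 replicate 1 none was. The same 5 genes were lower in Δpro#3 than in NFIA cells, with 3.70% of all genes called lower, and all 5 calls held without Δpro#3 replicate 1. Without Δpro#3 replicate 2 the Lpl difference was -1.497 and under 3-fold, which left 4. The 8 genes together made up 3.19% of summed FPKM in NFIA cells at day 7, 0.103% in control and 0.273% in Δpro#3 cells, or 0.173% without Δpro#3 replicate 1.

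**Figure D2:**
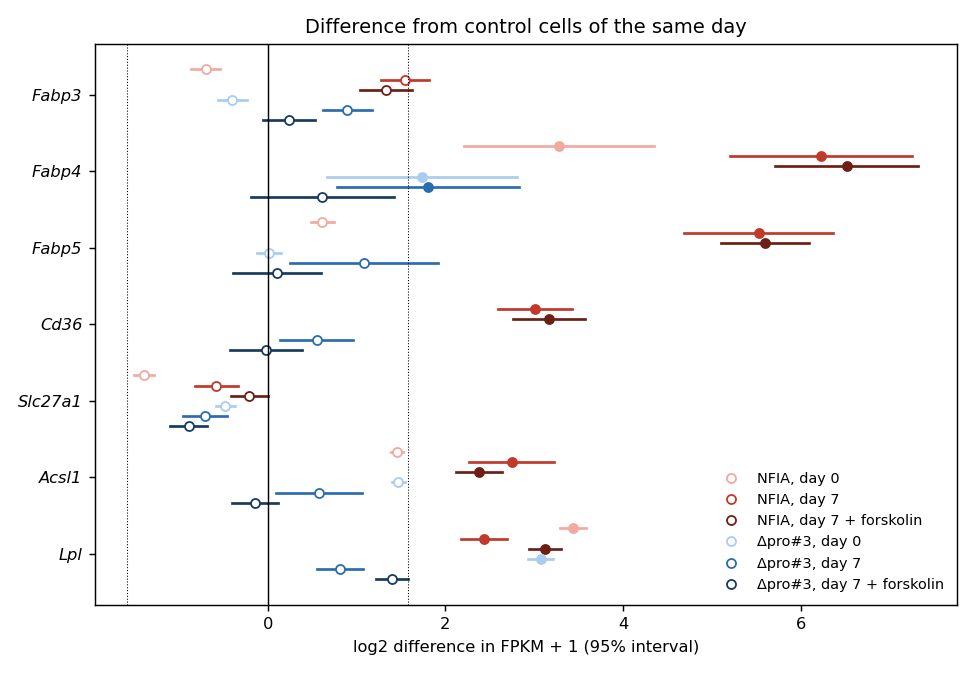
Log2 difference in FPKM + 1 from control cells of the same day for the 7 genes that could be tested, as points with 95% intervals, in NFIA cells (reds) and Δpro#3 cells (blues). Filled points were called, dotted lines mark 3-fold, and Cd36 has no day 0 points. Fabp4 and Fabp5 in NFIA cells lie farthest right, at 6.23 and 5.53 at day 7 and 6.52 and 5.60 with forskolin.

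Fabp4, the adipocyte binding protein, had the highest level of the 8 genes in NFIA cells of day 7. It was at 142, 161 and 150.3 FPKM in control, 11235, 12147 and 10778 FPKM in NFIA and 1415, 294 and 354 FPKM in Δpro#3 cells at day 7. The groups did not overlap, and NFIA cells exceeded controls by 75.0-fold in FPKM + 1 on the geometric scale (log2 difference 6.23, SE 0.46, adjusted p = 7.34e-07). Fabp4 in Δpro#3 cells was above control by a log2 difference of 1.80 (SE 0.46, adjusted p = 0.00879) and below NFIA cells by -4.43 (SE 0.46, adjusted p = 1.43e-05). Without Δpro#3 replicate 1 the difference from control was 1.09 (adjusted p = 2.94e-05), under 3-fold, and no gene of the 7 was called in that comparison.

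Fabp5 rose in NFIA cells, while its level in day 7 controls was close to that of day 0. It was at 22.5, 22.0 and 20.3 FPKM in control, 1023, 1104 and 999 FPKM in NFIA and 106, 28.4 and 33.9 FPKM in Δpro#3 cells. NFIA cells exceeded controls by a log2 difference of 5.53 (SE 0.37, adjusted p = 3.95e-07), and Δpro#3 cells lay below NFIA cells by -4.45 (SE 0.37, adjusted p = 2.98e-06). All 3 Δpro#3 samples were above the controls, at a log2 difference of 1.08 that did not reach 3-fold and was 0.50 without replicate 1. Fabp3, the muscle and heart form, was at 45.0, 43.8 and 50.4 FPKM in control, 124, 152 and 136 FPKM in NFIA and 107, 80.3 and 76.8 FPKM in Δpro#3 cells. Its groups did not overlap either, yet the NFIA difference of 1.54 (SE 0.12, adjusted p = 1.25e-06) was 2.92-fold, just under the threshold, and passed it at 1.65 when samples were scaled by median ratios.

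The 3 binding proteins made up different mixtures in these cells. At day 0 Fabp5 was 79.6% of their summed FPKM in controls and Fabp4 0.831%. Fabp4 was 22.2% of the sum in NFIA cells before differentiation, and 21.1%, 1.80% and 14.4% in the 3 Δpro#3 samples. At day 7 Fabp4 held the largest share in every group, 68.9% in control, 90.6% in NFIA and 86.9%, 73.0% and 76.2% in the Δpro#3 samples. Fabp3 was 21.2% of the sum in day 7 controls and 1.09% in NFIA cells, although its own level was higher in NFIA cells.

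**Figure D3:**
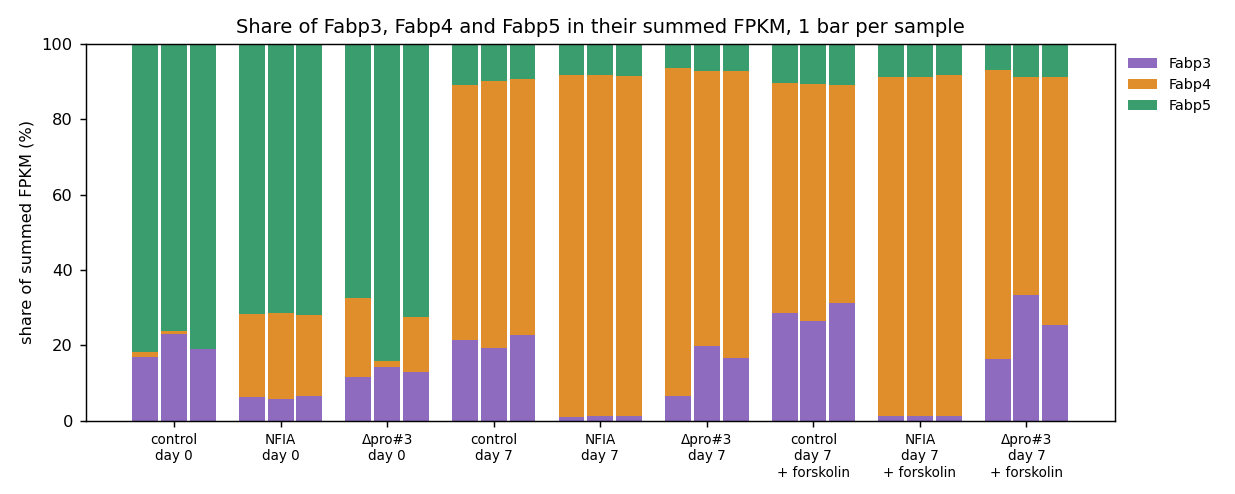
Share of Fabp3, Fabp4 and Fabp5 in their summed FPKM (%), as 1 stacked bar per sample for the 9 groups. Fabp5 fills most of the day 0 bars, Fabp4 fills 90.6% of the NFIA bars at day 7, and Fabp3 keeps 21.2% in day 7 controls.

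Of the uptake proteins, Cd36 rose with NFIA and Slc27a1 did not. Cd36 was at 15.5, 17.6 and 15.8 FPKM in control, 123, 161 and 133 FPKM in NFIA and 34.7, 18.8 and 22.0 FPKM in Δpro#3 cells at day 7. The log2 difference was 3.01 between NFIA and control cells (SE 0.19, adjusted p = 1.96e-07) and -2.46 between Δpro#3 and NFIA cells (adjusted p = 1.31e-06). Against control, Δpro#3 cells differed by 0.55 (adjusted p = 0.0325), and by 0.30 without replicate 1 (adjusted p = 0.0561). Slc27a1 was lower with both constructs than in controls, at 19.4, 19.4 and 18.2 FPKM in control, 11.7, 13.4 and 12.2 FPKM in NFIA and 13.6, 11.2 and 9.34 FPKM in Δpro#3 cells. The 2 construct groups overlapped each other but not the controls. Their log2 differences from control were -0.58 and -0.71 (adjusted p = 0.000800 and 0.000536), less than 3-fold, and the difference between them was -0.13, with a 95% interval of -0.37 to 0.12 (adjusted p = 0.328), and -0.26 without Δpro#3 replicate 1 (adjusted p = 0.0218).

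Acsl1 was at 30.5, 30.2 and 33.3 FPKM in control, 206, 221 and 219.9 FPKM in NFIA and 74.9, 36.6 and 38.3 FPKM in Δpro#3 cells. NFIA cells exceeded controls by 6.71-fold (log2 difference 2.75, SE 0.21, adjusted p = 1.16e-06) and Δpro#3 cells lay below NFIA cells by -2.17 (adjusted p = 1.02e-05). Against control, Δpro#3 cells differed by 0.58 (adjusted p = 0.0473), and by 0.25 without replicate 1 (adjusted p = 0.0078).

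Lpl was at 183, 181 and 158 FPKM in control, 948, 987 and 902 FPKM in NFIA and 369, 256 and 303 FPKM in Δpro#3 cells at day 7. The groups did not overlap. NFIA cells exceeded controls by 5.42-fold (log2 difference 2.44, SE 0.12, adjusted p = 2.91e-08) and Δpro#3 cells lay below NFIA cells by -1.62 (SE 0.12, adjusted p = 8.54e-07). Δpro#3 cells exceeded controls by a log2 difference of 0.81 (adjusted p = 0.000317), under 3-fold.

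Δpro#3 replicate 1 was high for some of these genes more than for others. At day 7 its level was 4.37 times the mean of the other replicates for Fabp4, 3.40 times for Fabp5, 2.003 times for Acsl1 and 1.71 times for Cd36. For Fabp3, Lpl and Slc27a1 the ratio was 1.32 to 1.37. Adipoq, the adipocyte hormone, stood at 4.59 times, whereas Nfia was at 1.27 times and Pparg at 1.09 times. With forskolin the ratio was 3.20 for Fabp4, 2.10 for Fabp5, 1.81 for Cd36, 1.46 for Fabp3, 1.41 for Acsl1, 1.30 for Slc27a1, 1.10 for Lpl, 2.90 for Adipoq, 1.28 for Nfia and 0.98 for Pparg. The part of this sample's adipocyte markers in the Δpro#3 results was not tested beyond leaving it out.

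**Figure D4:**
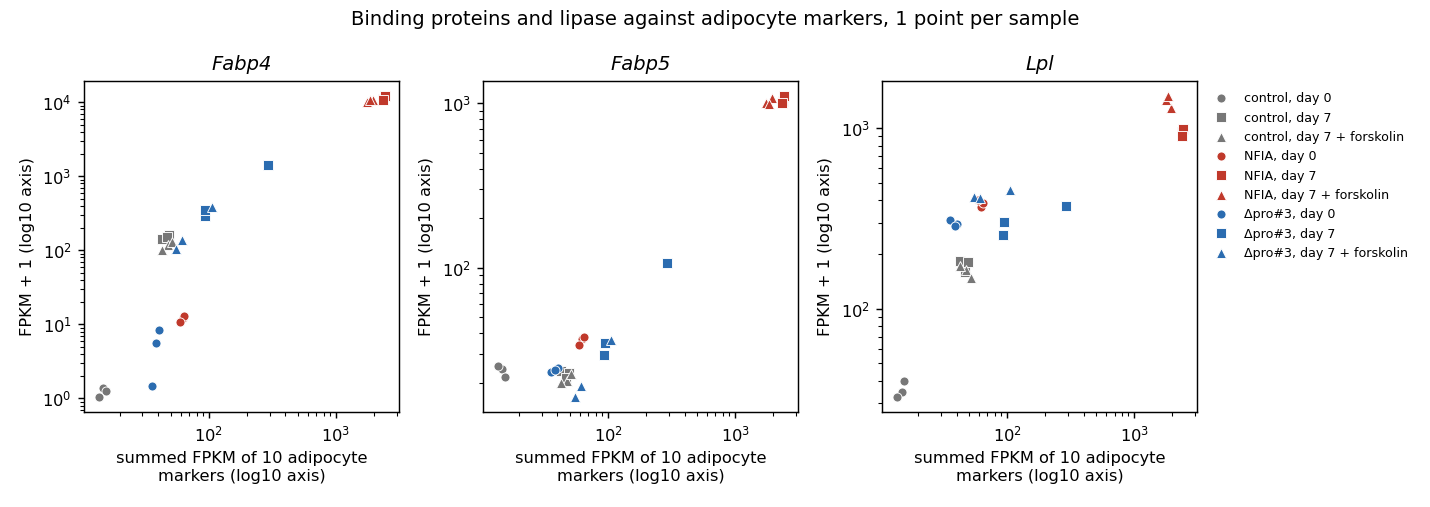
Level of Fabp4, Fabp5 and Lpl (FPKM + 1, log10 axis) against the summed FPKM of 10 adipocyte markers (log10 axis), 1 point per sample, coloured by construct and shaped by day. The day 7 NFIA samples lie at 2360 to 2428 FPKM of marker sum, those with forskolin at 1763 to 1948 FPKM and the outlying Δpro#3 sample at 292 FPKM, and Lpl is near 300 FPKM in Δpro#3 cells of day 0 at marker sums of 35.8 to 40.5 FPKM.

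Markers of adipocytes and muscle were compared between the same samples. At day 7, 10 of 10 adipocyte markers rose and 9 of 11 muscle markers fell in NFIA against control cells, beside 4.87% and 3.30% of all genes. In Δpro#3 cells 5 of 10 adipocyte markers rose, beside 0.933% of all genes, and no muscle marker was called. Of the muscle markers 8 of 11 had an adjusted p under 0.05 there (limma), as did 48.8% of all genes. At day 0 the adipocyte sum was 13.6 to 15.5 FPKM in control, 59.1 to 64.2 FPKM in NFIA and 35.8 to 40.5 FPKM in Δpro#3 cells, and Cidec, Cfd, Retn and Pck1, 4 of the 10, were at 0 in every day 0 control. Cebpa was the highest of the 10 in these groups, at means of 6.7, 38.98 and 15.97 FPKM in the same order. Of the 10 markers 6, 5 and 5 had means under 0.5 FPKM. The muscle sum at day 0 was 1441 to 1529 FPKM in control, 135 to 143 FPKM in NFIA and 403 to 412 FPKM in Δpro#3 cells. Of 8 macrophage markers, 5 or 6 had means under 0.5 FPKM in every group, and the sum lay between 8.24 and 32.3 FPKM. Lyz2 rose with both constructs at day 0, from 0.0855 FPKM in day 0 controls to 9.92 FPKM in NFIA and 4.08 FPKM in Δpro#3 cells. Cd68 was at 15.6 FPKM in day 7 controls and 10.4 FPKM in NFIA cells. The part of these cell type differences in the levels of the 8 genes was not tested.

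Pparg, the receptor that many of these genes answer to, was at 2.26 ± 0.169 FPKM in control, 14.2 ± 1.63 FPKM in NFIA and 8.86 ± 0.217 FPKM in Δpro#3 cells at day 0. It was called higher with both constructs, with log2 differences of 2.22 and 1.60. At day 7 it was at 5.95, 39.5 and 8.12 FPKM in the same order. It rose in NFIA cells (log2 difference 2.55), and in Δpro#3 cells the difference of 0.39 was not called. Lpl, like Pparg, was called with both constructs at day 0 and with NFIA at day 7. The Pparg difference between the constructs at day 7 was -2.15, beside a Nfia difference of -0.23 (adjusted p = 0.0751).

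The 58 other genes of fatty acid uptake and handling in the tables were taken from lists of intracellular binding proteins, transport and caveolae, acyl-CoA synthetases and the lipoprotein lipase system. At day 0, 34 passed the filter, with a median log2 difference of 0.29 in NFIA against control cells beside 0.01 for all genes. Where 2.46% of all genes were called higher and 2.78% lower, 3 of these rose and 1 fell. They were the caveolins Cav2 (7.61 to 38.6 FPKM, log2 difference 2.20) and Cav1 (96.0 to 357 FPKM, 1.88), the acetyl-CoA synthetase Acss2 (5.61 to 24.6 FPKM, 1.96), and the caveolar coat protein Cavin2, which fell (61.5 to 18.9 FPKM, -1.65). With Δpro#3, 1 of the 34 rose against control, Cav2, at 25.6 FPKM, beside 0.859% of all genes. None was called between Δpro#3 and NFIA cells, against 2.05% of all genes. There 26 of the 34 had an adjusted p under 0.05 (limma), as did 65.3% of all genes.

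At day 7, 13 of 38 rose and 2 fell in NFIA against control cells, with a median of 0.81 beside -0.08 for all genes. Of all genes 4.87% were called higher and 3.30% lower. By list, 3 of 6 binding proteins rose, 3 of 11 transport and caveolar genes rose and 1 fell, 1 of 7 acyl-CoA synthetases rose and 1 fell, and 6 of 14 genes of the lipase system rose. Angptl4, a secreted inhibitor of Lpl, rose from 11.9 to 412 FPKM (log2 difference 5.01, SE 0.13, adjusted p = 4.08e-10) and was at 51.7 FPKM in Δpro#3 cells. Angptl8, its relative, rose from 0.139 to 20.3 FPKM (4.22), and the acyl-CoA binding protein Dbi rose from 138 to 1275 FPKM (3.20). The muscle caveolin Cav3 fell from 44.0 to 4.44 FPKM (-3.06) and was at 19.5 FPKM in Δpro#3 cells.

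Against control, 1 of the 38 rose in Δpro#3 cells at day 7, Angptl4, with a median of 0.14, beside 0.933% of all genes called higher. Between Δpro#3 and NFIA cells 12 were lower and 2 higher, with a median of -0.51 beside 0.03 for all genes. Of all genes 3.70% were called lower and 2.60% higher. The largest differences were those of Angptl8 (-4.26), Angptl4 (-2.99), Apoe, a lipoprotein component (20.7 against 158 FPKM, -2.92), and Acsl6, an acyl-CoA synthetase known from brain (16.8 against 1.77 FPKM, 2.69). Acsl1 and Acsl6 differed in opposite directions between the same samples. With forskolin, 39 of the pathway genes were tested. Of these 9 rose and 2 fell in NFIA against control cells, 0 rose and 2 fell in Δpro#3 against control cells, and 11 were lower and 2 higher in Δpro#3 than in NFIA cells. In the same order the shares of all genes called were 4.25% and 3.77%, 0.866% and 0.685%, and 3.31% and 2.89%.

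From day 0 to day 7 Fabp3, Fabp4, Cd36, Lpl and Acsl1 rose in control cells, 5 of 7 tested, where 3.65% of all genes were called higher. In NFIA cells Fabp3, Fabp4, Fabp5, Cd36 and Acsl1 rose, also 5 of 7, against 5.38%. Fabp3, Fabp4 and Cd36 rose in Δpro#3 cells, 3 of 7, against 3.91%. Fabp5 rose in NFIA cells and was not called in the others. Its log2 change was -0.07 in control (adjusted p = 0.848), 4.85 in NFIA and 1.00 in Δpro#3 cells, the last without reaching 3-fold and at 0.42 without Δpro#3 replicate 1 of day 7.

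The log2 differences of Lpl from day 0 to day 7 were 2.30 in control and 1.30 in NFIA cells, the second under 3-fold, and 0.04 in Δpro#3 cells (adjusted p = 0.732). The NFIA difference was the smaller by -0.997 (adjusted p = 1e-05), starting from a day 0 level of 383 ± 16.0 FPKM in NFIA cells beside 34.6 ± 3.68 FPKM in controls. Those of Slc27a1 were -0.81 in control, 0.00 in NFIA and -1.04 in Δpro#3 cells, none past 3-fold. In the same order they were 2.86, 5.10 and 4.15 for Fabp3, 6.95, 9.90 and 7.02 for Fabp4, 3.48, 7.10 and 4.45 for Cd36, and 2.33, 3.62 and 1.44 for Acsl1, the last of these under 3-fold. For Cd36, and for Fabp4 in control cells, these log2 changes start from day 0 levels near 0 and depend on the pseudocount of 1. By limma-voom on fragments they were 4.91, 13.42 and 7.46 for Cd36 and 9.46 for Fabp4 in control cells.

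All 7 tested genes had a change from day 0 to day 7 that differed between NFIA and control cells by adjusted p alone, as did 71.2% of all genes. All 7 also differed between Δpro#3 and NFIA cells, as did 63.5% of all genes. The interaction of Fabp4 between NFIA and control cells was 2.95 (adjusted p = 0.00203), but 1.04 with a pseudocount of 0.1 and 0.53 with limma-voom on fragments, neither of which passed. Between Δpro#3 and NFIA cells it was -2.88, and -2.28 with limma-voom, which did not pass. The interaction of Cd36, which also starts from few fragments, was 3.62 between NFIA and control cells and -2.65 between Δpro#3 and NFIA cells, but 8.51 and -5.96 with limma-voom.

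After 4 hours of forskolin none of the 7 genes tested was called by limma in any kind of cell. Of all genes, 0.392% were called in control, 0.743% in NFIA and 0.588% in Δpro#3 cells. By limma 1 gene was under an unadjusted p of 0.05 in control cells (Slc27a1), 1 in NFIA cells (Lpl) and all 7 in Δpro#3 cells, and the same counts passed an adjusted p of 0.05, beside 20.5%, 55.4% and 35.8% of all genes. By limma-voom on fragments Fabp4 was called lower in Δpro#3 cells. The fit used a shared estimate of spread, to which replicate 1 of the Δpro#3 cells contributed. Without it in both Δpro#3 groups, a choice made after the data were seen, Acsl1 also passed in NFIA cells (-0.35, limma adjusted p = 0.000133). Fabp4 then also passed in control cells (-0.39, adjusted p = 0.0176). The shares of all genes above are for the fit with all samples.

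With all samples Lpl was the gene that passed the adjusted p in NFIA cells. It was at 948, 987 and 902 FPKM without and 1286, 1429.8 and 1503 FPKM with forskolin, all treated samples above all untreated ones. The log2 difference was 0.57 (SE 0.11, adjusted p = 0.000244), 1.48-fold. In controls Lpl was at 163, 147 and 170.5 FPKM with forskolin, a log2 difference of -0.12 (adjusted p = 0.487), and in Δpro#3 cells at 452, 413 and 409 FPKM, a difference of 0.47 (adjusted p = 0.00237). The response of Lpl differed between NFIA and control cells by 0.69 (SE 0.15, adjusted p = 0.00239), where 30.6% of all genes passed. It was the 1 gene of the 7 to pass there.

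The other 6 genes all had negative differences in Δpro#3 cells. Fabp4 was at 1415, 294 and 354 FPKM without and 386, 103 and 137 FPKM with forskolin, a log2 difference of -1.58 (SE 0.46, adjusted p = 0.0139), 2.98-fold. Treated and untreated samples overlapped: treated replicate 1 at 386 FPKM lay above untreated replicates 2 and 3. The differences were -1.09 for Fabp5, -0.75 for Cd36, -0.70 for Acsl1, -0.51 for Slc27a1 and -0.44 for Fabp3 (adjusted p between 0.0015 and 0.0217). Without untreated replicate 1 the Fabp4 difference was -0.87 (adjusted p = 0.0715), and Lpl, Slc27a1 and Acsl1 alone of the 7 genes passed the adjusted p. Without treated replicate 1 it was -2.14 (adjusted p = 0.00114) and past 3-fold. Without both outlying Δpro#3 samples, an alternative chosen after the data were seen, Fabp4 differed by -1.43 (adjusted p = 1.79e-06), Fabp5 by -0.85 and Cd36 by -0.77, and Lpl by 0.56. Adipocyte markers moved in the same comparison with all samples: 3 of 10 (Adipoq, Plin1 and Cidec) fell, beside 0.131% of all genes. Of the 10, 7 passed the adjusted p, beside 35.8% of all genes, and their median log2 difference was -0.97 beside -0.06 for all genes. In NFIA cells the median of these markers was -0.34 and none was called, while 5 of 10 passed the adjusted p, beside 55.4% of all genes. Their part in the forskolin differences of the 8 genes was not tested.

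By adjusted p, Slc27a1 alone of the 7 genes had a response that differed between Δpro#3 and NFIA cells, by -0.55 (SE 0.15, adjusted p = 0.0154), against 21.7% of all genes. By limma 5 of the 7 were under an unadjusted p of 0.05, with larger differences for Fabp4 (-1.48) and Fabp5 (-1.06). Slc27a1 was at 13.4, 11.8 and 13.3 FPKM in NFIA and 9.05, 6.70 and 7.25 FPKM in Δpro#3 cells with forskolin, groups that did not overlap. Without both outlying samples 5 genes passed, with Fabp3 at -0.48, Fabp4 at -1.33, Fabp5 at -0.82, Cd36 at -0.76 and Slc27a1 at -0.54. Between NFIA and control cells 3 then passed, Lpl (0.69), Slc27a1 (0.37) and Acsl1 (-0.37). The 21.7% belongs to the fit with all samples. No share of all genes is given without these samples, so the counts of 5 and 3 have no background beside them.

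**Figure D5:**
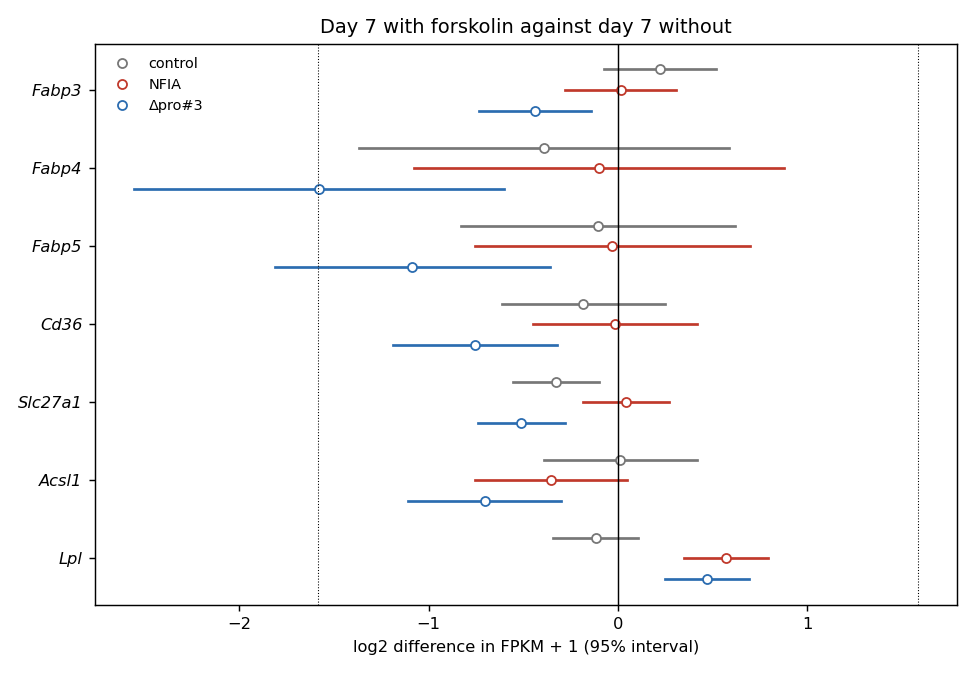
Log2 difference in FPKM + 1 between day 7 samples with and without forskolin for 7 genes, as points with 95% intervals in control (grey), NFIA (red) and Δpro#3 cells (blue). Dotted lines mark 3-fold and no point was called. Lpl lies right of 0 in NFIA (0.57) and Δpro#3 cells (0.47), and Fabp4 in Δpro#3 cells at -1.58 has the lowest value.

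With forskolin present, the construct comparisons gave the same 5 genes as at day 7. In NFIA against control cells Fabp4 (log2 difference 6.52), Fabp5 (5.60), Cd36 (3.17), Lpl (3.13) and Acsl1 (2.38) rose, beside 4.25% of all genes called higher. In Δpro#3 cells these 5 were lower than in NFIA cells, by -5.90, -5.50, -3.19, -1.72 and -2.52, beside 3.31% of all genes. None of the 7 was called between Δpro#3 and control cells by limma, against 1.55% of all genes, with 2 under an unadjusted and an adjusted p of 0.05, the latter passed by 46.6% of all genes. Those were Lpl, at 425 ± 23.5 against 160.2 ± 11.8 FPKM (1.40, SE 0.08, adjusted p = 4.14e-07, 2.64-fold), and Slc27a1, at 7.67 ± 1.23 against 14.96 ± 0.234 FPKM (-0.89, adjusted p = 2.70e-05). The difference for Fabp4 was 0.62, with a 95% interval of -0.19 to 1.42, and 0.054 without treated Δpro#3 replicate 1 (adjusted p = 0.769). Without that sample 5 of the 7 passed the adjusted p, again with none past 3-fold. The 46.6% of all genes belongs to the fit with all samples, and no share is given without that sample. Lpl was then at 1.36 (adjusted p = 1.75e-06), Slc27a1 at -1.001 (adjusted p = 3.31e-06), Acsl1 at -0.30 (adjusted p = 0.00731), Cd36 at -0.29 (adjusted p = 0.026) and Fabp5 at -0.24 (adjusted p = 0.0327). With all samples the Fabp5 difference was 0.10.

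Among the 58 related genes, forskolin called 1, Acsl4, an acyl-CoA synthetase with a preference for arachidonate, in NFIA cells, beside 0.743% of all genes. It went from 19.6, 18.9 and 19.4 FPKM to 62.7, 75.4 and 78.8 FPKM (log2 difference 1.85, SE 0.12, adjusted p = 2.15e-09). In control and Δpro#3 cells its differences of 0.55 and 1.43 had adjusted p of 0.00265 and 8.82e-08 but stayed under 3-fold. Its response differed between NFIA and control cells by 1.30 (adjusted p = 2e-05).

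Over the 9 groups the levels were ordered as follows, with the ranges of the 3 samples compared between neighbours. Fabp4, Fabp5 and Cd36 were highest in the NFIA groups of day 7 without and with forskolin, which overlapped, and these did not overlap the third group, Δpro#3 at day 7. Fabp3 had the same 3 groups on top, the NFIA groups again overlapping each other. Acsl1 was higher in NFIA cells without than with forskolin, at 216 ± 8.15 and 169 ± 9.24 FPKM, with no overlap but a log2 difference of -0.35 that did not pass (adjusted p = 0.126). Without both outlying Δpro#3 samples the same difference had an adjusted p of 0.000133 (limma). Lpl was highest in NFIA cells with forskolin, at 1406 ± 110.5 FPKM, and lowest in day 0 controls, at 34.6 ± 3.68 FPKM. Slc27a1 was highest in day 0 controls and lowest in Δpro#3 cells with forskolin, and NFIA cells of day 0, day 7 and day 7 with forskolin overlapped at 12.4 to 12.8 FPKM.

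The genes with the most similar patterns were ranked by Pearson r of log2(mean FPKM + 1) over the 9 group means among 10187 genes, as a description in which the points share libraries. For Fabp3 they were Uqcrc2 (r = 0.9964), Ndufab1 (0.9954) and Atp5k (0.9933). For Fabp4 they were Mdh1 (0.9913), Amy1 (0.9885) and Endog (0.9866). Fabp5 came with the hormone-sensitive lipase Lipe (0.9939), the oxysterol receptor Nr1h3 (0.9924) and Ppp1r1b (0.9921), and Cd36 with the uncoupling protein Ucp3 (0.9950), Chchd3 (0.9932) and Idh3b (0.9891). For Lpl the highest r was 0.9683 (Ppl), for Acsl1 0.9963 (Rilp) and for Slc27a1 0.9551 (Nid2). Among the 8 genes themselves Fabp4 and Acsl1 had r = 0.976 and Fabp3 and Cd36 0.971, while Slc27a1 had negative r with the other 6 tested genes, from -0.298 to -0.697.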

How the data were processed

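Per the labels and the study's methods, TruSeq Stranded mRNA libraries were aligned to the mouse genome mm9 with STAR 2.5.3a, uniquely placed reads were used, and the authors deposited 1 table of FPKM values per sample, with no pooling. Whole fragments were worked back from the FPKM steps, within a tolerance of 0.05 fragments, and gave the depths, which limit the precision of low genes. The 8 genes, the related gene lists, the marker lists and the rules were chosen with earlier results of these data known. Named from the lists were up to 4 called genes with the largest log2 difference in each of the comparisons described, the genes next to Fabp4, Nfia, Pparg and, for each of the 8 genes, the 3 genes with the most similar pattern. Lyz2, Cd68, Flt1, Pecam1, Cdh5 and the other markers printed were named after their values were seen.

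The 9 groups of 3 were taken from the labels. log2(FPKM + 1) was fitted with limma 3.58.1 (trend) in R 4.3.3 on genes with a mean of 0.5 FPKM or more over the fitted samples, in 9 samples for comparisons within a day and 18 for those between days or with forskolin. Tests were two-sided, with Benjamini-Hochberg adjustment over all genes, and 19 comparisons were made. Differences of responses (interactions) were called by adjusted p alone. The test was tried on simulated data. For NFIA against control cells at day 7 it recovered 72% of genes changed 4-fold and 93% of those changed 8-fold. The simulated spread was the same for every group, unlike that of the Δpro#3 samples, so recovery in the data can differ. In the interactions of NFIA and control cells it called 11 unchanged genes of 12248 tested for forskolin. From day 0 to day 7 it called 15 of 12408. Alternatives were a pseudocount of 0.1, median-ratio scaling, no filter or a minimum of 5 FPKM, no variance trend, a replicate block, limma-voom on fragments and leaving out each sample. Replicate numbers were not taken as pairing samples, since the labels do not say so. Figures and counts were made in Python 3.11.15.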

Additional observations from a re-analysis of the deposited data

Results flagged for a closer look

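The following results stand out because the same contrast gave a different log2 change in 2 kinds of cells, by limma's test of the difference itself over all genes. For the change from day 0 to day 7, NFIA exceeded control cells by 2.24 for Fabp3 (adjusted p = 1.2e-09), 2.95 for Fabp4 (adjusted p = 0.00203), 4.91 for Fabp5 (adjusted p = 2.19e-08) and 3.62 for Cd36 (adjusted p = 3.12e-10). The same difference was 1.29 for Acsl1 (adjusted p = 0.000138), 0.82 for Slc27a1 (adjusted p = 2.44e-05) and -0.997 for Lpl (adjusted p = 1e-05), the 1 gene of the 7 whose signed difference was below 0. By limma-voom on fragments the Fabp4 value was 0.53, with a pseudocount of 0.1 it was 1.04, neither of which passed, and by limma-voom the Cd36 value was 8.51. For Slc27a1 the log2 differences from day 0 to day 7 were -0.81 in control cells and 0.00 in NFIA cells.

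The change from day 0 to day 7 was lower in Δpro#3 than in NFIA cells by -0.95 for Fabp3 (adjusted p = 4.32e-05), -2.88 for Fabp4 (adjusted p = 0.00286), -3.84 for Fabp5 (adjusted p = 6.23e-07) and -2.65 for Cd36 (adjusted p = 2.3e-08). By limma-voom the Fabp4 value was -2.28 and did not pass, and the Cd36 value was -5.96. It was also lower by -1.26 for Lpl (adjusted p = 9.69e-07), -1.05 for Slc27a1 (adjusted p = 2.23e-06) and -2.18 for Acsl1 (adjusted p = 6.3e-07).

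The response to forskolin differed for Lpl between NFIA and control cells, by 0.69 (adjusted p = 0.00239), and for Slc27a1 between Δpro#3 and NFIA cells, by -0.55 (adjusted p = 0.0154). These comparisons share the NFIA samples. Shares of 71.2% and 63.5% of all genes passed the same test for the change from day 0 to day 7, and 30.6% and 21.7% for forskolin. With 3 samples in a group, Dixon's test for a single outlying sample was not run.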

How the results depend on the processing

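The counts of called genes among the 8 kept within 1.5 times their first value in 378 of 399 recomputations, and of 2742 recomputed log2 differences 2676 kept their direction and side of the threshold, 7 fell short of it, 36 newly passed and 23 changed sign. Many of these recomputations could not move the log2 difference, only its p-value. They were the filters, the fit without trend, the replicate block and leaving out a sample of a group not compared. The tallies therefore overstate stability. Between Δpro#3 and NFIA cells at day 0, 1 gene (Fabp4) was called with a pseudocount of 0.1 and with limma-voom on fragments where 0 had been. Limma-voom also called 1 gene (Fabp4) for forskolin in Δpro#3 cells where 0 had been, and brought 2 rather than 1 past the adjusted p for the forskolin response of Δpro#3 against NFIA cells. Median-ratio scaling brought 2 rather than 1 past it for NFIA against control cells. Without both outlying Δpro#3 samples, chosen after the data were seen, these 2 counts of interactions were 5 and 3. Leaving out 1 sample gave 1 to 2 genes for Δpro#3 against control cells, the 1 without Δpro#3 replicate 1 or 3, and 0 to 1 for Δpro#3 against NFIA cells at day 0, the 1 without NFIA replicate 3 or Δpro#3 replicate 1 or 3, and 0 to 1 for Δpro#3 against control cells at day 7, the 0 without Δpro#3 replicate 1. It gave 0 to 1 genes for forskolin in Δpro#3 cells, the 1 without untreated replicate 2 or 3 or treated replicate 1. It gave 1 to 2 for the response of NFIA against control cells, the 2 without untreated Δpro#3 replicate 1 or 3 or treated replicate 1, and 1 to 5 for that of Δpro#3 against NFIA cells, with 5 without treated replicate 1 and 4 without untreated replicate 2. The cause was not tested.

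The log2 differences that changed sign were small. Under median-ratio scaling Cd36 was 0.028 in Δpro#3 against control cells with forskolin, and the forskolin differences in NFIA cells were 0.039 for Fabp4, 0.11 for Fabp5 and 0.12 for Cd36. Leaving out 1 sample gave ranges of -0.049 to 0.064 for Fabp5 in Δpro#3 against control cells at day 0, and -0.24 to 0.33 for Fabp5 and -0.29 to 0.14 for Cd36 in the same cells with forskolin. For forskolin the ranges were -0.041 to 0.060 for Acsl1 in control cells, -0.056 to 0.088 for Fabp3, -0.065 to 0.012 for Fabp5 and -0.098 to 0.091 for Cd36 in NFIA cells, and -0.23 to 0.035 for the Lpl interaction of Δpro#3 and NFIA cells. From day 0 to day 7 they were -0.049 to 0.040 for Slc27a1 in NFIA cells and -0.095 to 0.17 for Lpl in Δpro#3 cells. Scaling moved the median of all genes by 0.16 in NFIA against control and -0.12 in Δpro#3 against NFIA cells with forskolin, by 0.11 for forskolin in NFIA cells, and by 0.13 and 0.11 from day 0 to day 7 in NFIA and Δpro#3 cells. The interactions of Fabp4 from day 0 to day 7 lost the threshold with limma-voom, at 0.53 for NFIA against control and -2.28 for Δpro#3 against NFIA cells, and the first also with a pseudocount of 0.1, at 1.04. Few fragments at day 0 limit Fabp4 and Cd36, and Gpihbp1 could not be tested.

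With the replicate number as a block, every count was the same as without it, at 2, 2 and 0 called genes at day 0, 5, 1 and 5 at day 7, 5, 0 and 5 with forskolin, 0 for each forskolin response, 1 and 1 for its interactions, 5, 5 and 3 from day 0 to day 7, and 7 and 7 for those interactions. The labels do not say that replicate numbers pair the samples, and the mean correlation of deviations between samples of the same number was -0.0314 to 0.0177 over the 5 fits. The highest was 0.358, between replicate 1 of the Δpro#3 cells without and with forskolin, and whether these came from 1 culture is not known. All groups hold the same replicate numbers, so the block could not change a log2 difference, only its p-value. The forskolin difference of Fabp4 in Δpro#3 cells thus stayed at -1.58 by design.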
